A study of Mus musculus with 16 samples.

Results

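A list of 31 genes that encode constitutive subunits of the 26S proteasome was followed in RNA of mouse quadriceps muscle after transection of the anterior cruciate ligament (ACL). These genes were chosen by name, as the listed subunits of the 20S core particle and of the 19S regulatory particle without the inducible subunits Psmb8, Psmb9 and Psmb10. All 31 were among the 17370 genes of the deposited table, and all 31 passed the filter on low counts that left 15411 genes for testing. The 16 libraries formed 4 groups of 4: injured quadriceps of mice given an inhibitor of the receptor CSF1-R, healthy quadriceps of mice given the inhibitor, injured quadriceps of placebo mice, and healthy quadriceps of placebo mice. The inhibitor was given at 40 mg/kg, the placebo mice drank 0.5% sucrose, and both lasted for 7 days after the transection. The labels number the libraries of a group as biological replicates and give no strain, genotype, sex or age. The library names join 1 injured and 1 healthy quadriceps by a shared stem, read here as 1 animal (8 animals). By this reading the healthy muscle would be a limb of an operated mouse. Every injured library name ends in R and every healthy one in L, so that injury and this suffix cannot be told apart. CSF1-R is the receptor through which macrophages receive survival signals, and the series asks how its inhibition alters quadriceps atrophy after ligament injury.

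The 26S proteasome degrades proteins that carry ubiquitin chains and some that carry none. In its 20S core, outer rings of alpha subunits guard the gate, and inner rings of beta subunits hold the proteolytic sites of Psmb5 (chymotrypsin-like), Psmb6 (caspase-like) and Psmb7 (trypsin-like). The 19S particle binds ubiquitin chains, removes them and unfolds the substrate: its base holds a ring of ATPases (Psmc1 to Psmc6) with the scaffold subunits Psmd1 and Psmd2 and the ubiquitin receptor Psmd4, and its lid holds the deubiquitinase Psmd14. In skeletal muscle this pathway is known for breaking down myofibrillar proteins during atrophy, after tagging by ligases such as Fbxo32 (atrogin-1) and Trim63 (MuRF1). When proteasome activity is low, the transcription factor NRF1, encoded by Nfe2l1, is known to raise subunit transcription through antioxidant response elements in subunit promoters.

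Because NRF1 acts through subunit promoters, those of the 4 genes that held the core of that element are printed, with that of Psma7, the member with the smallest p of any comparison. The windows run from 250 bases before to 50 bases after the RefSeq start on GRCm38.p6 and read 5′ to 3′ on the gene's strand. Capitals mark the core TGACNNNGC or its reverse complement, and CCGGAAG, the core bound by ETS factors, or its reverse complement.
Psmb5: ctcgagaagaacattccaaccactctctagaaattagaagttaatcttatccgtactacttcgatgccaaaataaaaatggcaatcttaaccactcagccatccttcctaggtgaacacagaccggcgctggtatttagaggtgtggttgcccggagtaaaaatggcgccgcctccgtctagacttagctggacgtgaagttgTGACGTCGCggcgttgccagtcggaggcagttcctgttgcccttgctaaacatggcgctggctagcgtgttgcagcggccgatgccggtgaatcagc
Psmb6: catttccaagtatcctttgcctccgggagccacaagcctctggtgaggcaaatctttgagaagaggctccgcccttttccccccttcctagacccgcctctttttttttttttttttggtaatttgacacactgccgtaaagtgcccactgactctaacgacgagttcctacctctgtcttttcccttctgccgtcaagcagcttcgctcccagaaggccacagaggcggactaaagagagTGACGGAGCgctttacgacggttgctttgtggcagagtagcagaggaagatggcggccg
Psmc6: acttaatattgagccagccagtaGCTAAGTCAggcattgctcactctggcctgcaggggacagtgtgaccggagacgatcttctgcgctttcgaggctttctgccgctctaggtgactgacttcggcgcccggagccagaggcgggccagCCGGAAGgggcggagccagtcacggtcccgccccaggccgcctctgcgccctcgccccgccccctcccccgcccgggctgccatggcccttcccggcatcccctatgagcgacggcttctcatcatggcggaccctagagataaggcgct
Psmd12: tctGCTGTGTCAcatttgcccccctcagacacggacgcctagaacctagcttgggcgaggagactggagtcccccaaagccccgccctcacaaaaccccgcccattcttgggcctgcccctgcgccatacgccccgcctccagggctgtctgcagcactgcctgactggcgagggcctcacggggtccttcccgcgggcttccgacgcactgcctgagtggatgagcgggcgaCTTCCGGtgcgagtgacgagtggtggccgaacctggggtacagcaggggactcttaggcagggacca
Psma7: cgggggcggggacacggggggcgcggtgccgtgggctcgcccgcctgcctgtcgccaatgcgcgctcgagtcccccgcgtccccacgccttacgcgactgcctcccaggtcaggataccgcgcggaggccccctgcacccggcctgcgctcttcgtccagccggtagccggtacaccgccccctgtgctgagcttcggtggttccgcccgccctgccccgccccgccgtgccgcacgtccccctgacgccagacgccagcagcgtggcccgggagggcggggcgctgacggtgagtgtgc
The Psmb5 window lies at chr14:54617946-54618245 (minus strand) and its element core starts at position -47 relative to the gene start. The Psmb6 window lies at chr11:70525107-70525406 (plus strand) with the core at -9. The Psmc6 window lies at chr14:45329574-45329873 (plus strand) with the element core at -227 and the ETS core at -100. The Psmd12 window lies at chr11:107479278-107479577 (plus strand), with the element core at -247 and the ETS core at -17. The Psma7 window lies at chr2:180042415-180042714 (minus strand) and matched neither.

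RefSeq promoters were matched for 25 of the 31 members (27 promoters), and not for Psmb1, Psmb2, Psmb7, Psmc3, Psmd3 and Psmd7. Each motif was searched on both strands. The element core TGACNNNGC was in 14.8% of the member promoters, against 12.4% of all 32851 promoters of that length. The ETS core CCGGAAG was in 40.7% of the member promoters, against 8.86% of all promoters; the 10 genes that held it were Psma6, Psmc1, Psmc2, Psmc6, Psmd2, Psmd4, Psmd6, Psmd11, Psmd12 and Psmd13. GGGCGG, the GC box, was in 55.6% of the member promoters and 35.7% of all, and CCAAT in 37.0% and 37.4%. TGTTTAC, the core bound by FoxO factors, was in 0 of the 27 member promoters and 3.65% of all. Median GC content was 56.7% in the member promoters and 52.7% in all. These matches are descriptions of letters in a window and carry no test.

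Library totals were 20.1 to 27.1 M counts, and the lowest count of a member in a library was 262 (Psma5). Marker genes of skeletal muscle were abundant in every library, with 101600 to 183000 CPM summed over 8 genes (CPM, counts per M after scaling of library sizes, M being mega), while 6 slow-fibre genes summed to 39.6 to 2586 CPM. Libraries differed in genes of the joint lining: Prg4, which encodes lubricin, reached 286 CPM in injured placebo 3, 251 CPM in healthy placebo 4, 220 CPM in injured placebo 2 and 169 CPM in healthy inhibitor 1. Csf1r, the gene of the receptor that the inhibitor targets, had 9.53, 6.02, 11.6 and 7.84 CPM in injured inhibitor quadriceps, against 16.4, 63.8, 60.0 and 10.4 CPM in injured placebo quadriceps. The inhibitor acts on the protein, so that this level does not check the drug. In RNA of whole muscle, fewer cells of a type and less RNA per cell cannot be told apart.

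The subunit genes were expressed at moderate levels that differed about 10.3-fold between members per kilobase of exon, although the complex holds most of its subunits in equal number. On the length-normalised scale (RPKM, counts per kilobase of exon and per M scaled counts, mean ± SD over 16 libraries), Psmb5 was the highest with 73.4 ± 9.18, followed by the base scaffold Psmd2 with 56.7 ± 5.24, the alpha subunit Psma6 with 56.1 ± 4.33 and the ATPases Psmc5 with 51.4 ± 4.52 and Psmc3 with 49.8 ± 3.32. The lowest were the alpha subunits Psma3 with 7.15 ± 0.812 and Psma5 with 10.8 ± 1.62, and the lid subunits Psmd14 with 10.9 ± 0.794 and Psmd11 with 11.2 ± 1.12. Within this order Psmd2 and Psma6 lay within 1 SD of each other, as did Psmc5 and Psmc3, and Psma5, Psmd14 and Psmd11. With the longest annotated transcript as length in place of all exons, Psma3 remained the lowest, Psmb6 became the highest and Psmb5 the fourth. The span became 8.57-fold, and the 2 orders had a Spearman correlation of 0.88 across the 31 genes. Both lengths are annotated ones, 3894 and 2846 bases for Psma3 and 899 in both for Psmb5. Which transcripts the muscle expressed was not tested. Without length, Psma5 was the lowest with 14.2 CPM on average, and Psma3 had 27.8 CPM. On that scale Psmb5 had 66.0 CPM, under the median member (71.3 CPM).

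By role, the 3 catalytic subunits had a median level of 43.3 RPKM, between 35.7 for Psmb7 and 73.4 for Psmb5. The 4 structural beta subunits had a median of 25.3 RPKM and the 7 alpha subunits of 17.2 RPKM, with Psma6 at 56.1 the highest of them and Psma1 next at 21.1; with the longest transcript as length these were 66.4 and 51.8 RPKM. In the 19S particle the 6 ATPases had a median of 30.3 RPKM, the 3 other base subunits of 34.7 RPKM and the 8 lid subunits of 23.9 RPKM, from Psmd14 at 10.9 to Psmd7 at 48.9. Psmd14, the deubiquitinase of the lid, was thus among the lowest members. With the longest transcript as length, Psma7, the median alpha subunit on both scales, had 34.8 RPKM. The structural beta subunits then ran from 35.8 RPKM for Psmb3 to 71.7 RPKM for Psmb4. The lid subunits ran from 19.9 RPKM for Psmd14 to 80.0 RPKM for Psmd6. The size of the gaps between the roles thus depends on the length used.

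**Figure D1:**
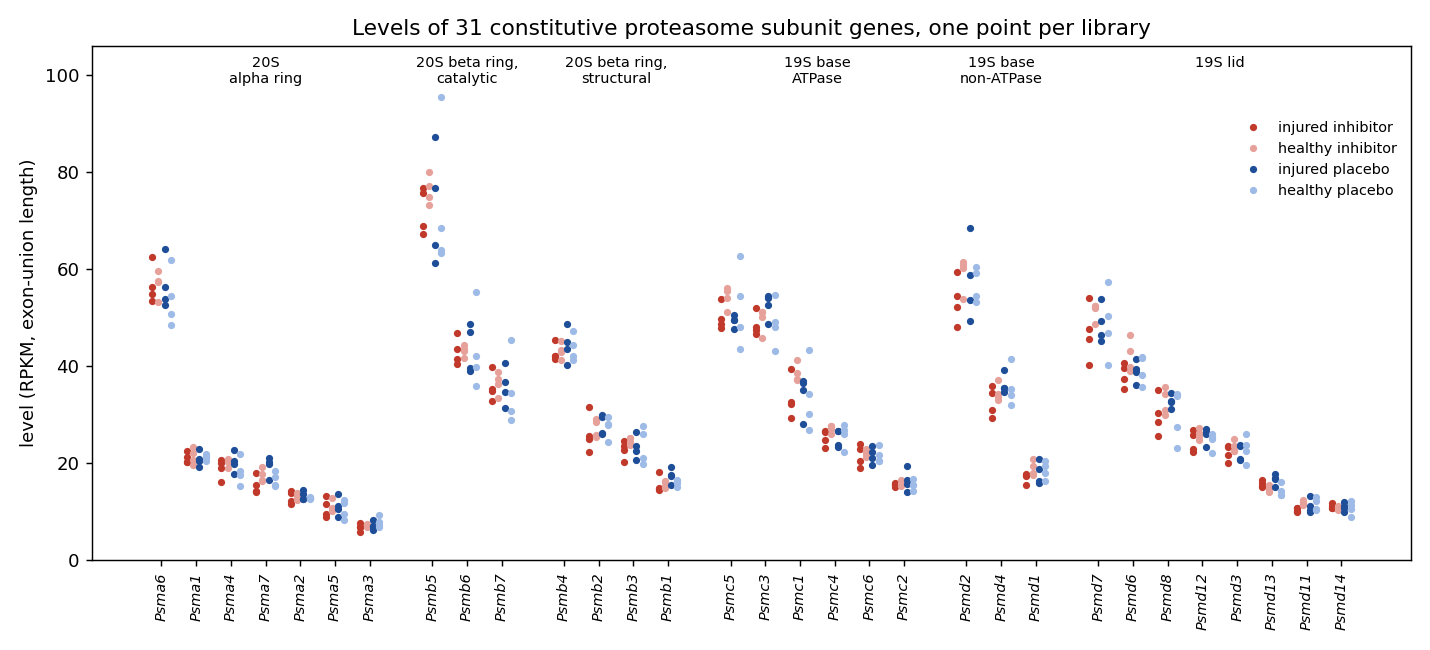
Level of each subunit gene in RPKM (linear axis, from 0) in each of the 16 libraries, coloured by group and ordered within each role by mean level. Psmb5, Psmd2 and Psma6 are the highest, Psma3 is the lowest at 7.15 RPKM on average, and the mean levels span 10.3-fold over the members.

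The members varied little between libraries of a group. The within-group SD of the log2 level was 0.124 for the median member, from 0.083 for Psmb4 to 0.239 for Psma5, against a median of 0.282 over all 15411 genes tested. The median member was also more abundant, at 71.3 CPM against 9.62 CPM for all genes tested, and the part of abundance in the smaller spread was not tested. Psmb4, a structural beta subunit, ranged only 1.21-fold over the 16 libraries, from 78.36 to 95.02 CPM. Among the catalytic genes the spread was wider, with 0.190 for Psmb5, 0.180 for Psmb7 and 0.164 for Psmb6.

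Single libraries stood out across many members. Healthy placebo 3 had the highest level of its group in 22 of the 31 members and the lowest in none, and it also had the most Myh4, the gene of the fastest myosin heavy chain, of all libraries (79410 CPM). Healthy placebo 2 was the lowest of its group in 12 members and healthy placebo 4 in 14; healthy placebo 2 had the least Myh4 of its group (37610 CPM), and healthy placebo 4 the second most (60730 CPM). In the inhibitor arm, injured inhibitor 1 was the highest of its group in 16 members and injured inhibitor 3 the lowest in 15, with 46510 and 41810 CPM of Myh4, against 59450 CPM in injured inhibitor 4. The part of fibre composition in these library differences was not tested. The same counts were not made over all genes, so that a shift of a whole library cannot be told apart from one of the members.

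**Figure D2:**
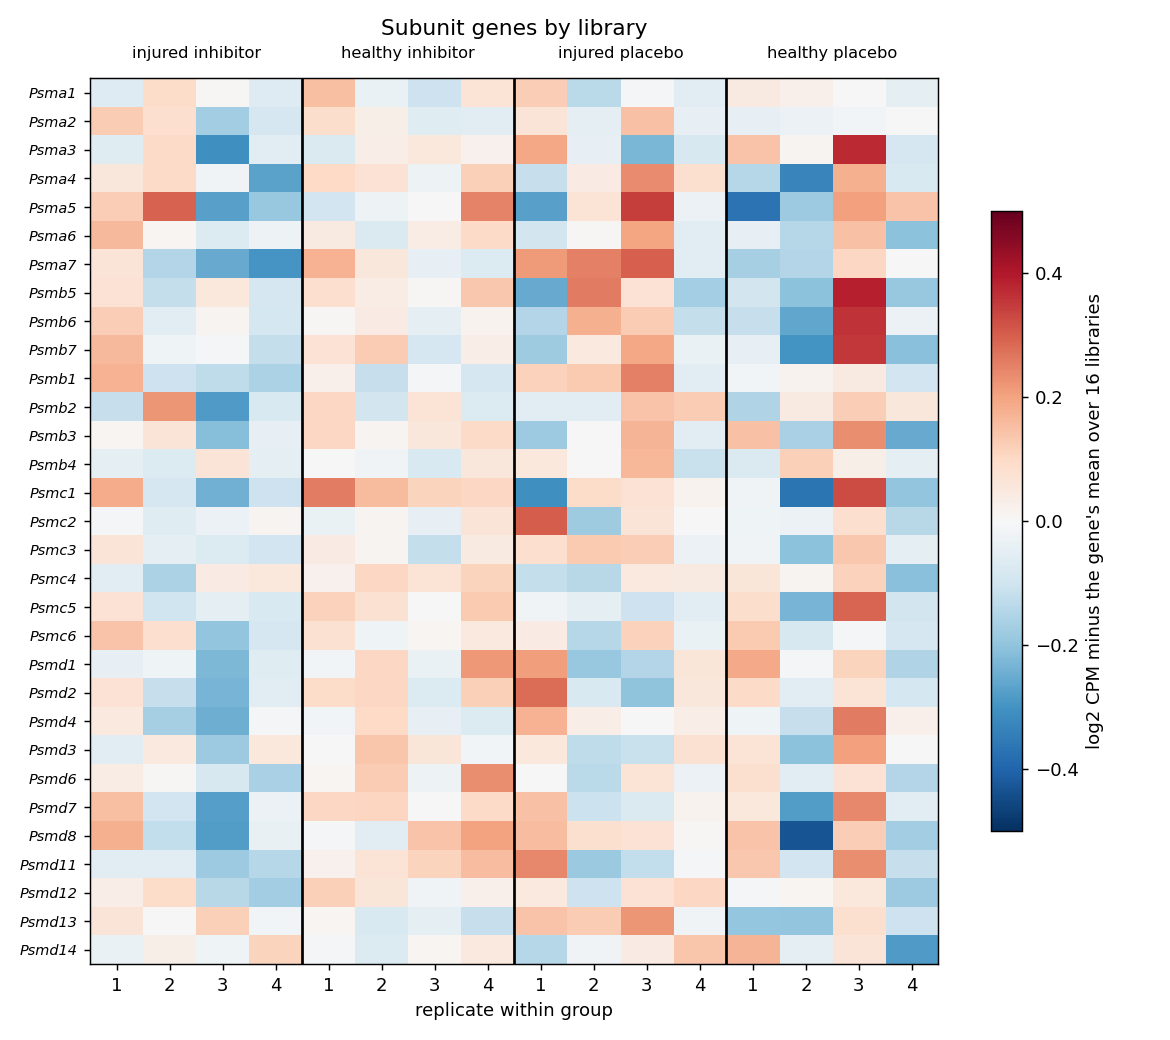
Log2 CPM of each of the 31 subunit genes minus its own mean over the 16 libraries, for each library of the 4 groups (columns, replicates 1 to 4). Healthy placebo 3 is above the mean in most rows, with the strongest values in Psma3, Psmb5, Psmb6, Psmb7 and Psmc1, while injured inhibitor 3 and healthy placebo 2 are mostly below it.

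Together the 31 genes took 0.221 to 0.270% of the scaled counts of a library. The summed level was 2514, 2355, 2211 and 2296 CPM in injured inhibitor quadriceps 1 to 4, and 2503, 2499, 2391 and 2543 CPM in healthy inhibitor quadriceps. It was 2527, 2387, 2492 and 2405 CPM in injured placebo quadriceps, and 2456, 2209, 2698 and 2247 CPM in healthy placebo quadriceps. The groups overlapped in each arm, and the healthy placebo libraries spread the most. Group means were 2344 ± 128 CPM in injured inhibitor and 2484 ± 65.1 CPM in healthy inhibitor quadriceps, and 2453 ± 67.5 CPM in injured placebo and 2403 ± 225 CPM in healthy placebo quadriceps (SD, n = 4 each).

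The ratio of the 2 particles overlapped between the groups, with a mean ratio of 19S to 20S sums of 1.87 ± 0.08, 1.94 ± 0.05, 1.89 ± 0.21 and 1.92 ± 0.10 in injured inhibitor, healthy inhibitor, injured placebo and healthy placebo quadriceps (SD, n = 4 each). The 14 core genes summed to 817 ± 44.8, 844 ± 22.5, 851 ± 59.5 and 824 ± 85.9 CPM in injured inhibitor, healthy inhibitor, injured placebo and healthy placebo quadriceps, and the 17 regulatory genes to 1527 ± 89.9, 1641 ± 47.9, 1601 ± 85.1 and 1578 ± 146 CPM (SD, n = 4 each). The ratio of 19S to 20S sums ranged from 1.69 in injured placebo 3 to 2.12 in injured placebo 1, so that both ends lay in the same group. The second lowest ratio was 1.75 in injured placebo 2. Injured placebo 2 and 3 were also the libraries highest in Csf1r, and a link with the ratio was not tested. Injured placebo 1 had the highest 19S sum of its group (1717 CPM), with a 20S sum of 810 CPM. Injured placebo 3 had the highest 20S sum of its group (928 CPM), with a 19S sum of 1564 CPM, near the group mean.

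**Figure D3:**
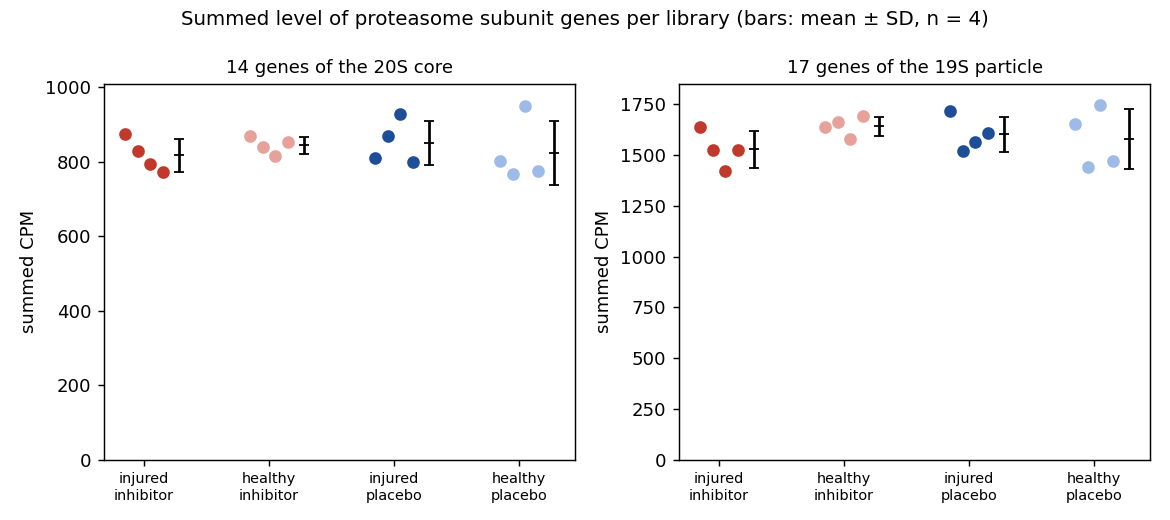
Summed CPM of the 14 core genes (left) and the 17 regulatory genes (right) in each library, with group mean and SD (n = 4). The groups overlap in both panels, and healthy placebo 3 is the highest library with 951 CPM for the core and 1746 CPM for the regulatory particle.

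Injury in placebo mice was compared first, which asks whether subunit transcripts differed in the muscle of the transected limb. No member was called, and none of the 15411 genes was (0%; edgeR quasi-likelihood test, Benjamini-Hochberg adjusted p under 0.05). The smallest adjusted p among the members was 0.641. DESeq2 called no member either, in this or any other comparison. At an unadjusted p under 0.05, 2 members of 31 were higher in injured quadriceps and none was lower, against 4.61% of all genes higher and 7.24% in either direction. By sign, 20 members were above 0 and 11 below, where 51.1% of all genes were above 0, and the median member difference of 0.02 (log2) compared with 0.01 over all genes. The 95% intervals of the members, each for 1 gene and not adjusted for their number, reached from -0.39 to 0.45 (log2). No member had groups that did not overlap, against 1.55% of all genes. Leaving out 1 library at a time put 13 (without healthy placebo 4) to 27 members (without healthy placebo 3) above 0.

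The 3 catalytic genes were not called in that comparison, and the sign of their differences turned on single libraries. Psmb5 had 55.1, 78.4, 68.9 and 58.3 CPM in injured placebo quadriceps, against 61.6, 56.8, 85.9 and 57.5 CPM in healthy placebo quadriceps, a log2 difference of -0.01 ± 0.13 (SE; adjusted p = 0.99). Psmb6 had 72.8, 91.0, 87.9 and 74.3 CPM in injured placebo quadriceps, against 74.4, 67.3, 104 and 78.8 CPM in healthy placebo quadriceps (log2 difference 0.01 ± 0.12, adjusted p = 0.985). Psmb7 had 107, 125, 139 and 119 CPM in injured placebo quadriceps, against 118, 98.5, 155 and 105 CPM in healthy placebo quadriceps (log2 difference 0.04 ± 0.13, adjusted p = 0.931). In all 3, healthy placebo 3 was the highest of the 8 libraries, and the groups overlapped. Without that library the differences of Psmb5, Psmb6 and Psmb7 were 0.15, 0.15 and 0.19, and without the 4 libraries highest in Prg4 they were -0.27, -0.16 and -0.14.

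The members with the smallest p were a lid subunit, an alpha subunit and a structural beta subunit. Psmd13, a lid subunit, had 56.8, 56.2, 59.9 and 50.8 CPM in injured placebo quadriceps, against 45.0, 44.9, 54.3 and 47.9 CPM in healthy placebo quadriceps. It was higher on the injured side in 4 of 4 same-numbered pairs, with a log2 difference of 0.22 ± 0.08 (SE; adjusted p = 0.641). Psma7, an alpha subunit, had 60.6, 62.3, 64.3 and 50.4 CPM in injured placebo quadriceps, against 46.6, 47.3, 56.2 and 52.4 CPM in healthy placebo quadriceps. It was higher in 3 of 4 same-numbered pairs (0.23 ± 0.10, adjusted p = 0.641). Psmb1, a structural beta subunit, had 79.9, 80.7, 87.8 and 70.9 CPM in injured placebo quadriceps, against 73.0, 74.6, 76.0 and 69.0 CPM in healthy placebo quadriceps, higher in 4 of 4 same-numbered pairs (0.13 ± 0.09, adjusted p = 0.679). In all 3 genes the groups overlapped. Without the 4 libraries highest in Prg4, the differences of Psmd13, Psma7 and Psmb1 were 0.155, 0.142 and 0.009 (log2).

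In mice given the inhibitor, most members were lower in injured quadriceps, without a call. None of 31 was called (0% of all genes; smallest adjusted p of a member 1), and none reached an unadjusted p under 0.05, where 1.31% of all genes did. By sign, 29 members were below 0 in injured quadriceps and 2 above, the lid subunits Psmd13 and Psmd14, while 49.0% of all genes were below 0. The median member difference was -0.08 (log2), against 0.00 over all genes, and the 95% intervals reached from -0.49 to 0.31. The 14 core genes had a median of -0.03 and the 17 regulatory genes of -0.10, and this gap between the particles was not tested. The signs of 31 genes measured in the same libraries are not independent. Leaving out healthy inhibitor 1 or 4, or injured inhibitor 2, 3 or 4, put 5 to 8 members above 0. Without injured inhibitor 3, which had the lowest sum of the inhibitor arm, the median member difference was -0.04. Of 8 skeletal muscle markers, 6 were lower and 2 higher with injury in that arm (median -0.21, log2). With placebo 7 were lower and 1 higher (median -0.23). A link of these markers with the members was not tested.

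Psmd11, a lid subunit, was the only member whose groups did not overlap in that arm (1 of 31; 1.13% of all genes were lower without overlap and 2.23% were without overlap in either direction). It had 68.2, 68.2, 62.5 and 64.3 CPM in injured inhibitor quadriceps, against 72.1, 74.4, 76.7 and 78.9 CPM in healthy inhibitor quadriceps (log2 difference -0.20 ± 0.10, lower in 4 of 4 same-numbered pairs, adjusted p = 1). In placebo mice the gene had 83.9, 62.5, 65.1 and 70.7 CPM in injured and 78.0, 66.4, 83.4 and 65.6 CPM in healthy quadriceps, a range wider than in both inhibitor groups. Psma7 had 54.7, 47.3, 43.9 and 42.7 CPM in injured inhibitor quadriceps, against 59.0, 54.3, 50.9 and 49.9 CPM in healthy inhibitor quadriceps. It was lower on the injured side in 4 of 4 same-numbered pairs (-0.18 ± 0.10, adjusted p = 1), although the groups overlapped. Psmd6, another lid subunit, had 114, 111, 105 and 98.9 CPM in injured inhibitor quadriceps, against 111, 121, 109 and 129.9 CPM in healthy inhibitor quadriceps (-0.14 ± 0.09, lower in 3 of 4 same-numbered pairs, adjusted p = 1).

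The catalytic genes were not called in that arm either. Psmb5 had 69.0, 60.3, 68.0 and 61.9 CPM in injured inhibitor quadriceps, against 69.4, 67.3, 65.8 and 71.9 CPM in healthy inhibitor quadriceps (log2 difference -0.08 ± 0.13, adjusted p = 1). Psmb6 had 87.7, 77.6, 81.3 and 75.8 CPM in injured inhibitor quadriceps, against 80.8, 82.9, 77.8 and 81.5 CPM in healthy inhibitor quadriceps (0.00 ± 0.12, adjusted p = 1). Psmb7 had 136, 119, 121 and 112 CPM in injured inhibitor quadriceps, against 128, 132, 115 and 124 CPM in healthy inhibitor quadriceps (-0.03 ± 0.13, adjusted p = 1). In each gene the groups overlapped.

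Inhibitor and placebo were then compared within the injured quadriceps. No gene of the 15411 and no member was called (0%), the smallest adjusted p of a member being 0.224. DESeq2 called 256 genes in that comparison, none of them a member. At an unadjusted p under 0.05, 1 of 31 members was lower and none higher, against 9.03% of all genes lower and 14.9% in either direction. By sign, 26 members were below 0 and 5 above (53.1% of all genes were below 0). The median member difference was -0.05 (log2), against -0.02 over all genes, and the 95% intervals reached from -0.55 to 0.30. No member had groups that did not overlap, where 5.65% of all genes did. Leaving out injured inhibitor 3 or 4, injured placebo 1 or 3, or healthy placebo 4 put 9 to 15 members above 0, the most without injured placebo 3.

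That 1 member was Psma7. It had 54.7, 47.3, 43.9 and 42.7 CPM in injured inhibitor quadriceps, against 60.6, 62.3, 64.3 and 50.4 CPM in injured placebo quadriceps. Each inhibitor library lay below the placebo mean, while injured inhibitor 1 lay above injured placebo 4, so that the groups overlapped by that pair. The log2 difference was -0.33 ± 0.10 (SE; adjusted p = 0.224). It was -0.23 without the 4 libraries highest in Prg4, 2 of which belong to the injured placebo group (adjusted p = 0.823). Limma-voom with quality weights called the gene (-0.37, adjusted p = 0.0425), the only member it called, while it called 8.75% of all genes in that comparison.

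Psmb1 had 83.2, 68.5, 67.6 and 66.0 CPM in injured inhibitor quadriceps, against 79.9, 80.7, 87.8 and 70.9 CPM in injured placebo quadriceps (log2 difference -0.16 ± 0.09, adjusted p = 0.4). Injured inhibitor 1 stood apart from the other 3 libraries of its group. Psmd4, the ubiquitin receptor of the base, had 101, 86.7, 82.1 and 96.5 CPM in injured inhibitor quadriceps, against 109.7, 99.5, 97.4 and 99.6 CPM in injured placebo quadriceps (-0.15 ± 0.09, adjusted p = 0.457). The catalytic Psmb5, Psmb6 and Psmb7 differed by -0.01, -0.02 and -0.01 (log2; SE 0.13, 0.12 and 0.13), and by 0.20, 0.14 and 0.11 without the 4 libraries highest in Prg4.

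In healthy quadriceps the members leaned slightly upwards with the inhibitor. None was called and no gene was (0%; smallest adjusted p of a member 1), and none of 31 had an unadjusted p under 0.05, where 3.34% of all genes did. By sign, 25 members were above 0 and 6 below (46.0% of all genes were above 0). The median difference was 0.04 (log2), against -0.02 over all genes, and the 95% intervals reached from -0.35 to 0.48. No member had groups that did not overlap, against 2.54% of all genes. Without the 4 libraries highest in Prg4, 17 members were above 0 and the median was 0.00.

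Psmc1, an ATPase, had 75.9, 63.0, 56.6 and 62.1 CPM in injured inhibitor quadriceps, 79.7, 74.5, 72.2 and 71.9 CPM in healthy inhibitor quadriceps, 54.0, 71.1, 70.3 and 67.6 CPM in injured placebo quadriceps, and 66.0, 51.9, 83.8 and 58.3 CPM in healthy placebo quadriceps. Between the healthy groups its log2 difference was 0.20 ± 0.13 (adjusted p = 1), with healthy placebo 3 above all 4 inhibitor libraries. Psma4, an alpha subunit, had 48.9, 48.0, 44.8 and 49.5 CPM in healthy inhibitor quadriceps, against 41.3, 36.3, 51.6 and 43.3 CPM in healthy placebo quadriceps (0.15 ± 0.11, adjusted p = 1). Psmd8, a lid subunit, had 94.3, 91.3, 104.5 and 109 CPM in healthy inhibitor quadriceps, against 104.4, 70.2, 103 and 83.8 CPM in healthy placebo quadriceps (0.14 ± 0.12, adjusted p = 1). The placebo values spread on both sides of the inhibitor values in Psmc1 and Psma4. The catalytic Psmb5, Psmb6 and Psmb7 differed by 0.07, 0.00 and 0.07 (log2; SE 0.13, 0.12 and 0.13), and by 0.23, 0.14 and 0.22 without healthy placebo 3.

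**Figure D4:**
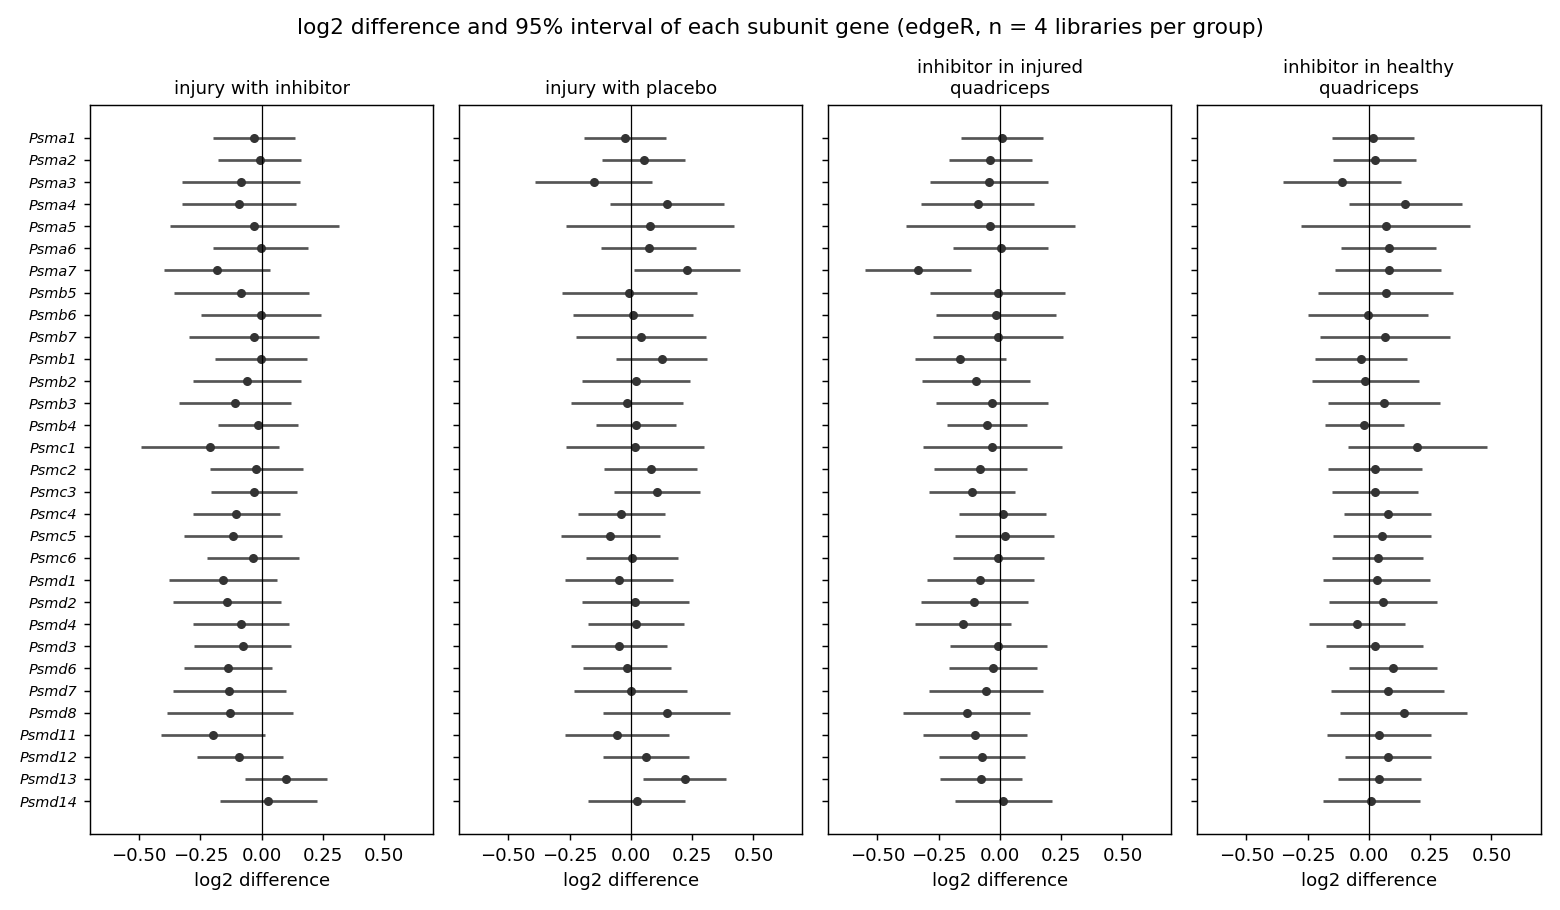
Log2 difference (point) and 95% interval (bar) of each of the 31 subunit genes, from edgeR, in injury with inhibitor, injury with placebo, inhibitor in injured and inhibitor in healthy quadriceps; positive values are higher in the injured or the inhibitor group. Nearly all intervals include 0; those of Psma7 and Psmd13 with placebo and of Psma7 with inhibitor in injured quadriceps do not, and no gene passed the adjusted threshold.

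Whether the injury difference itself differed between inhibitor and placebo mice was tested as the difference of the 2 differences. No gene and no member was called (0%; smallest adjusted p of a member 0.998), and 1 of 31 members had an unadjusted p under 0.05, where 2.74% of all genes did. By sign, 29 members were below 0 (50.5% of all genes), with a median of -0.10 (log2), against 0.00 over all genes. The median was -0.03 without the 4 libraries highest in Prg4, and 10 members were then above 0. Leaving out injured inhibitor 3, injured placebo 3 or healthy placebo 2 or 4 put 4 to 6 members above 0, and leaving out healthy placebo 3 put none there. Psma7 had the smallest p, with -0.41 ± 0.14 (adjusted p = 0.998), since it was higher on the injured side with placebo and lower with the inhibitor. Psmd8 followed with -0.28 ± 0.17 and Psma4 with -0.24 ± 0.16 (adjusted p = 0.998 for each). Psmd8 had 107.2, 87.0, 78.1 and 92.3 CPM in injured inhibitor and 105.4, 100.2, 99.6 and 94.98 CPM in injured placebo quadriceps. Psma4 had 47.5, 48.8, 45.1 and 38.0 CPM in injured inhibitor and 42.1, 47.0, 53.8 and 48.2 CPM in injured placebo quadriceps. For the catalytic Psmb5, Psmb6 and Psmb7 the differences of the differences were -0.08, -0.01 and -0.07 (SE 0.18, 0.16 and 0.18). They were -0.23, -0.15 and -0.23 without healthy placebo 3, and 0.19, 0.15 and 0.11 without the 4 libraries highest in Prg4. These comparisons share groups, so that they are not independent of each other.

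The inducible subunits Psmb8, Psmb9 and Psmb10, which replace Psmb5, Psmb6 and Psmb7 in the immunoproteasome, are abundant in blood-derived cells and were low here. Psmb8 had 3.39, 3.92, 4.38 and 5.77 CPM in injured inhibitor and 5.31, 5.77, 7.24 and 2.81 CPM in healthy inhibitor quadriceps. It had 5.36, 15.9, 10.5 and 5.79 CPM in injured placebo and 2.69, 5.56, 4.41 and 7.06 CPM in healthy placebo quadriceps. The 2 high values came from injured placebo 2 and 3, which were also the highest libraries in Csf1r and among the 4 highest in Prg4. All 3 inducible genes were lower with the inhibitor in injured quadriceps, 1 of 3 at an unadjusted p under 0.05, against 9.03% of all genes: Psmb8 by -1.10 ± 0.37 (log2; adjusted p = 0.229) and Psmb9 by -0.78 ± 0.37 (adjusted p = 0.343). With placebo all 3 were higher in injured quadriceps, 2 of 3 at that level, against 4.61% of all genes (Psmb8 0.93 ± 0.37 and Psmb9 0.84 ± 0.37, each with an adjusted p = 0.641). Without the 4 libraries highest in Prg4, the Psmb8 difference between inhibitor and placebo in injured quadriceps was -0.35 (adjusted p = 0.883).

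Set per length against the constitutive gene it replaces, Psmb8 reached 1.81 ± 0.488% of Psmb5 in injured inhibitor, 2.07 ± 0.783% in healthy inhibitor, 3.66 ± 1.33% in injured placebo and 2.10 ± 1.00% in healthy placebo quadriceps (RPKM ratio, mean ± SD, n = 4 each). Psmb9 reached 1.38 ± 0.468, 1.39 ± 0.47, 2.30 ± 0.675 and 1.36 ± 0.608% of Psmb6 in the same order of groups. Psmb10 reached 14.02 ± 1.58, 11.9 ± 2.15, 17.9 ± 4.89 and 14.2 ± 4.02% of Psmb7. The constitutive genes thus exceeded their inducible counterparts in every group. Over 11 macrophage markers, none of them at 0, the summed level was 49.1 to 118 CPM in injured inhibitor, 44.1 to 133 CPM in healthy inhibitor, 92.7 to 764 CPM in injured placebo and 25.6 to 422 CPM in healthy placebo quadriceps. All 11 were lower with the inhibitor in injured quadriceps at an unadjusted p under 0.05 (edgeR), where 9.03% of all genes were lower. Their median was -2.62 (log2), and none had an adjusted p under 0.05. Of the 11, 4 were lower without overlap of the groups, against 5.65% of all genes in either direction. Cd68, with the largest difference, had 1.56, 26.1, 19.7 and 1.72 CPM in injured placebo 1 to 4, against 0.339 to 1.74 CPM in injured inhibitor quadriceps. Over 10 joint-lining and cartilage markers, of which Col2a1, Col10a1, Col9a1, Acan and Matn3 were at 0 in some libraries, the sum was 79.1 to 104 CPM, 84.1 to 257 CPM, 68.6 to 416 CPM and 80.2 to 365 CPM in injured inhibitor, healthy inhibitor, injured placebo and healthy placebo quadriceps. Within that sum, Clu alone had 52.9 to 95.4 CPM over the 16 libraries. It was highest in healthy placebo 1, where Prg4 was lowest (3.97 CPM), so that the sum follows Prg4 only in part. The part of macrophages and of joint-lining cells in the differences of Psma7 and of the inducible genes was not tested.

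Nfe2l1, the gene of NRF1, had the smallest p of the NRF1 list between inhibitor and placebo, in injured and in healthy quadriceps, and was not called in either. It had 1001, 807, 765 and 769 CPM in injured inhibitor and 881, 734, 797 and 755 CPM in healthy inhibitor quadriceps. It had 629, 573, 601 and 726 CPM in injured placebo and 638, 575, 855 and 679.8 CPM in healthy placebo quadriceps. In injured quadriceps the lowest inhibitor library lay above the highest placebo library, as in 2.78% of all genes, and the log2 difference was 0.40 ± 0.13 (adjusted p = 0.228). It was 0.31 without the 4 libraries highest in Prg4 (adjusted p = 0.817), and limma-voom with quality weights called it (0.47, adjusted p = 0.0373). In healthy quadriceps the groups overlapped, and the difference was 0.20 ± 0.13 (adjusted p = 1). Injury differed by 0.08 ± 0.13 with the inhibitor and by -0.12 ± 0.13 with placebo. Of the 4 genes of that list, 1 was higher and none lower at an unadjusted p under 0.05 with the inhibitor in injured quadriceps, against 5.82% of all genes higher; Nfe2l2, the gene of the related factor NRF2, differed by -0.18 ± 0.10 (adjusted p = 0.409).

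The 4 members with the element core in their promoter differed by -0.01 (Psmb5), -0.02 (Psmb6), -0.01 (Psmc6) and -0.07 (Psmd12) between inhibitor and placebo in injured quadriceps (log2; SE 0.13, 0.12, 0.09 and 0.08). In healthy quadriceps they differed by 0.07, 0.00, 0.04 and 0.08 (SE 0.13, 0.12, 0.09 and 0.08). The 95% interval of each of these 4 genes included 0 in both comparisons. The core was in 14.8% of the member promoters and 12.4% of all promoters, so that it does not by itself mark targets of NRF1. Binding and activity of NRF1 were not tested.

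**Figure D5:**
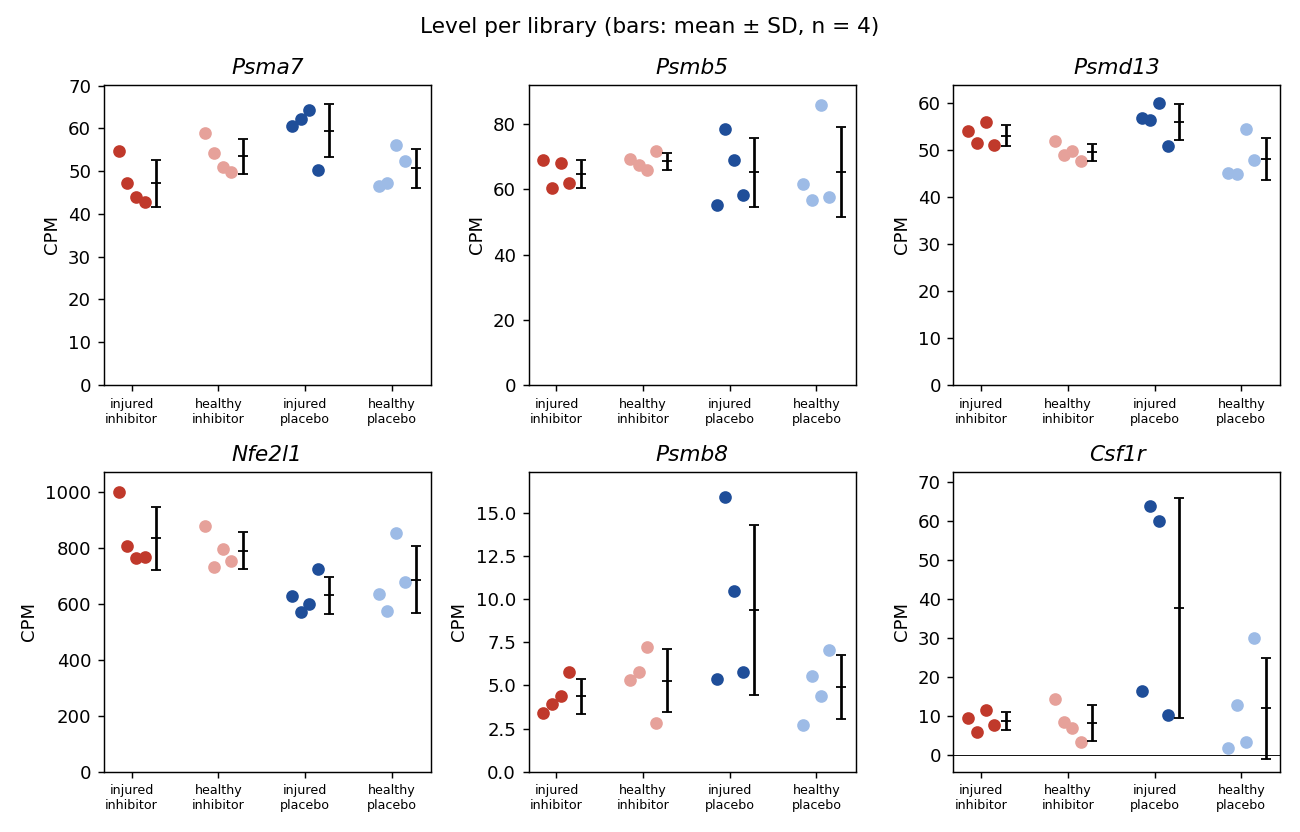
CPM in each library of the subunit genes Psma7, Psmb5 and Psmd13, of Nfe2l1, of the inducible Psmb8 and of Csf1r, with group mean and SD (n = 4). Injured inhibitor libraries are the lowest for Psma7 on average and do not overlap injured placebo for Nfe2l1, while injured placebo 2 and 3 carry the high values of Psmb8 and Csf1r.

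Genes that build or open the proteasome also gave no call. Of 8 assembly chaperones, Pomp, which is needed for the maturation of the 20S core, averaged 42.6 ± 2.84 CPM in injured inhibitor, 41.4 ± 2.54 in healthy inhibitor, 49.4 ± 6.44 in injured placebo and 41.3 ± 2.50 in healthy placebo quadriceps (SD, n = 4 each). It was 0.26 ± 0.09 (log2) higher with injury in placebo mice (4 of 4 same-numbered pairs, adjusted p = 0.641) and 0.21 ± 0.09 lower with the inhibitor in injured quadriceps (-0.21, adjusted p = 0.311). Psmd10 (gankyrin), a chaperone of the 19S base, was 0.36 ± 0.17 lower in that comparison (-0.36, adjusted p = 0.335). It had 5.735, 6.51, 7.145 and 5.556 CPM in injured inhibitor and 6.479, 10.14, 9.342 and 6.128 CPM in injured placebo quadriceps. The 2 high values came from injured placebo 2 and 3, the libraries highest in Csf1r. Thus 2 of the 8 chaperones were lower and none higher at an unadjusted p under 0.05, against 9.03% of all genes lower. Of 5 activators and inhibitors, none reached an unadjusted p under 0.05 in any comparison; with injury in placebo mice Psme2, of the PA28 activator that is induced by interferon, differed by 0.45 ± 0.32 (adjusted p = 0.679). None of the 6 factors associated with the 19S particle and none of the 8 shuttle and p97 genes reached that level in any comparison.

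Upstream of the proteasome, the ligases that tag its substrates gave no call. Of 12 muscle ligases, Asb2, which encodes a substrate receptor of a cullin ligase, averaged 986 ± 72.1 CPM in injured inhibitor, 1180 ± 63.5 in healthy inhibitor, 724 ± 155 in injured placebo and 884 ± 221 in healthy placebo quadriceps (SD, n = 4 each). It was higher with the inhibitor in injured quadriceps (0.45 ± 0.17, adjusted p = 0.245), without overlap of the groups, as 2.78% of all genes were. In healthy quadriceps it was also higher with the inhibitor (0.42 ± 0.17, adjusted p = 1). Asb2 had 850, 567, 613 and 864 CPM in injured placebo 1 to 4, lowest in the libraries 2 and 3 that were high in Prg4. With injury it differed by -0.26 in inhibitor mice, lower without overlap as 1.13% of all genes were, and by -0.29 in placebo mice, with overlap. Mul1, a mitochondrial ligase, differed by -0.29 ± 0.10 with injury in placebo mice (adjusted p = 0.641) and by 0.39 ± 0.15 in the difference of the injury effects (adjusted p = 0.998). Trim63, a main ligase of atrophy, had a log2 difference of -0.35 ± 0.21 with injury in inhibitor mice (adjusted p = 1) and of 0.04 ± 0.21 in placebo mice (adjusted p = 0.963). Fbxo32 had -0.41 ± 0.35 with injury in inhibitor mice (adjusted p = 1) and -0.20 ± 0.34 in placebo mice (adjusted p = 0.874), and no ligase was higher at an unadjusted p under 0.05 with injury in either arm.

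Some of these counts may be split between gene copies. For 15 of the 31 members, more than 50% of the deposited values differed from a whole number by more than 0.01, and these include Psmb5, Psmb7 and Psmd11, while at Psma7 and Psmd13 at most 12.5% did. Psma2, Psma3, Psma6, Psmb7, Psmc3, Psmd1 and Psmd13 overlap another gene of the table, and whether the counting used strand is not given in the sources used here. The 31 genes lie on 14 chromosomes; Psma7 is on GRCm38 chr2:180036374-180042433 on the minus strand and Psmd13 on chr7:140881968-140898643 on the plus strand.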

How the data were processed

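Quadriceps RNA from 4 groups of 4 libraries was sequenced. The authors deposited a single table of expected counts for Ensembl genes without normalization, and 33.8% of its values were not whole numbers. The submitters' processing notes name STAR, Partek, DESeq2 and the build GRCm38 (mm10), without versions or roles; the counter and the annotation release are not given in the sources used here. Symbols, coordinates and lengths came from GENCODE M21 by Ensembl ID, and 32 IDs had no symbol. Library totals were 20.1 to 27.1 M counts.

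After rounding to whole numbers, edgeR 4.0.16 (R 4.3.3) was run on the 15411 genes that filterByExpr kept at a minimum count of 10, leaving out 1959. It used TMM scaling, a design of 4 group means over the 16 libraries and the robust quasi-likelihood test (12 residual degrees of freedom, common biological coefficient of variation 0.284). The 5 comparisons were two-sided, with Benjamini-Hochberg adjustment over all genes tested and a threshold of 0.05. CPM used TMM-scaled totals, and RPKM the union of a gene's exons. P-values measure the spread between these libraries. Alternatives used limma 3.58.1 and DESeq2 1.42.0. The replicate number pairs an injured with a healthy quadriceps only through the library names, since the series' own design text describes sampling before and after injury. The correlation of the deviations of a pair was 0.23, -0.04, -0.01 and -0.1 for the inhibitor and 0.47, -0.18, -0.11 and -0.53 for placebo.

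The members and lists were chosen with earlier results of these data known. The rule for named genes gave values in every library for Psmb5, Psmb6, Psmb7 and the 3 members of smallest p in each comparison, and let the 2 genes of smallest p of each pathway list be named; Psmb10, as the partner of Psmb7, Fbxo32 and Myh4 were named beyond it, with their values seen. Psma8, Psmb11 and Paaf1 were not analysed here. One result that the rule for named genes would give is not reported here. Plots were made with matplotlib 3.10.9 under Python 3.11.15.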

Additional observations from a re-analysis of the deposited data

Results flagged for a closer look

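In each of the 124 groups of 4 libraries (31 members in 4 groups), a library was marked when its gap to the nearest other one was too large a share of the group's range by Dixon's criterion. This marked 4 of the 124, and chance alone marks about 5% of groups. Psmb5 had 85.9 CPM in healthy placebo 3, against 56.8 to 61.6 CPM in the other 3 libraries of the group. Psmb1 had 83.2 CPM in injured inhibitor 1, against 66.0 to 68.5 CPM in the others. Psmd2 had 217.6 CPM in healthy inhibitor 3, against 243 to 248 CPM in the others, and Psmd7 had 110.1 CPM in the same library, against 117.5 to 118.3 CPM.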

How the results depend on the processing

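DESeq2 called 2 genes for injury with placebo, 1 for injury with inhibitor, 256 for inhibitor in injured and 11 for inhibitor in healthy quadriceps, where edgeR called 0; limma-voom with quality weights called 1348 for inhibitor in injured quadriceps, among them 1 member (Psma7). The cause of these gaps was not tested. Nfe2l1 (adjusted p = 0.0373) and Psmb8 (-1.30, adjusted p = 0.0308) were also called only there. Leaving out 1 library at a time gave 0 to 3 called genes for injury with placebo, 0 to 39 for inhibitor in injured (39 without injured placebo 4) and 0 to 1 for inhibitor in healthy quadriceps, with 0 members called in each. The median member difference then ran from -0.02 to 0.09 for injury with placebo, -0.10 to -0.04 for injury with inhibitor, -0.08 to -0.02 for inhibitor in injured, 0.01 to 0.11 for inhibitor in healthy quadriceps and -0.15 to -0.06 for the difference of the injury effects. Without the 4 libraries highest in Prg4, a choice made after seeing the data, that last median was -0.028 (-0.103 with all libraries). The replicate block (animal) gave medians of 0.02, -0.08 and -0.10 for injury with placebo, injury with inhibitor and their difference, and changed no call. The 95% interval of a member in each comparison holds for the fit without an animal block and is not adjusted for the number of genes.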
